A study of Mus musculus with 6 samples.

Results

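The endoplasmic reticulum (ER) folds the proteins that a cell secretes. Here 34 genes of its folding and stress machinery were followed in MIN6 cells given an siRNA against TDP-43. The set was drawn up by function: stress sensors and their transcription factors, the chaperone BiP with its partners, disulfide enzymes, the lectin cycle, ER-associated degradation, and secreted or membrane proteins of the stress response. Each gene was read from its brightest probe set that names a single gene, taken over all 6 arrays. All 34 had a single-gene probe set above the filter on low signals, among 12619 genes tested. Below, a gene is counted as measured if it had such a probe set above the filter. TDP-43, encoded by Tardbp, is an RNA-binding protein that controls splicing, and MIN6 is a mouse insulinoma line that makes insulin.

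The tested cells were MIN6 cells given an siRNA against TDP-43 by electroporation (100 pmol, 1200 V for 20 ms), on 3 arrays. The control cells were MIN6 cells given a control siRNA in the same way, also on 3 arrays. Both groups therefore had the same pulse and the same siRNA load, and neither was untreated. The time between electroporation and RNA extraction and the siRNA sequences are not given in the sources used here, and all arrays come from 1 cell line. The labels number the arrays 1 to 3 in each group and do not say that they came from separate cultures, so a p-value measures the spread between these arrays, which may be technical.

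When unfolded proteins build up in the ER, BiP leaves 3 kinds of membrane sensor, PERK, IRE1 and ATF6, and sets off the unfolded protein response. PERK slows translation and raises the transcription factors ATF4 and CHOP, IRE1 splices the Xbp1 messenger, and ATF6 is cut to release a transcription factor. XBP1 and ATF6 raise the genes for chaperones, disulfide enzymes and the degradation machinery. Beta cells lean on this pathway because proinsulin is a large share of what they make. Proinsulin also needs disulfide bonds to fold.

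Much of this response is written into short promoter elements, which are shown because they are what many of the set share in sequence. Promoters of 29 of the 34 genes were matched in a RefSeq table (mouse build GRCm38.p6), which gives the 250 bases before and 50 after each gene's start. Those of Atf6, Hyou1, Manf, Derl1 and Sil1 were not matched. Both strands were searched for the ER stress element (ERSE), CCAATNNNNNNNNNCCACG, in which N is any base. It occurred in 10 of the 29 (34.5%), against 37 of 27025 genes with a promoter in the table (0.137%). The capitals below mark the CCAAT and CCACG ends, read 5′ to 3′ on the strand that carries them, with 5 bases on each side.

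Hspa5, chr2:34772020-34772048, plus strand: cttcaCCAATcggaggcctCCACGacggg
Hsp90b1 upstream copy, chr10:86705633-86705661, minus strand: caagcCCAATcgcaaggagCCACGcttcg
Hsp90b1 downstream copy, chr10:86705528-86705556, plus strand: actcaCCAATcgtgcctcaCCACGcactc
Dnajc3, chr14:118937822-118937850, plus strand: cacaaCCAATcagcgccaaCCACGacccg
Pdia6, chr12:17266486-17266514, plus strand: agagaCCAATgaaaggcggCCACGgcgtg
Ero1b, chr13:12565677-12565705, minus strand: ggcggCCAATgaggcgggaCCACGaggcc
Calr, chr8:84847070-84847098, plus strand: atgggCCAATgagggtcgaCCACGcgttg
Canx, chr11:50325795-50325823, minus strand: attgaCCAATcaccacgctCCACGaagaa
Syvn1, chr19:6046527-6046555, plus strand: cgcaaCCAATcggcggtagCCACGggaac
Derl3, chr10:75893237-75893265, minus strand: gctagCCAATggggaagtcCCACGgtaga
Creld2, chr15:88819515-88819543, minus strand: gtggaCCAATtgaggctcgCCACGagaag

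All 11 copies lay upstream of the gene start, from 212 to 26 bases before it. A shorter form, ERSE-II (ATTGGNCCACG), in which the first end is read from the other strand, was found in 2 of the 29 (6.9%), against 12 of 27025 genes (0.0444%). Its ends are in capitals for both.

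Dnajb11, chr16:22857847-22857867, plus strand: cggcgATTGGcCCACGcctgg
Herpud1, chr8:94386372-94386392, plus strand: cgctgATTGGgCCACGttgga

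The core that XBP1 and ATF6 can bind, TGACGTG, occurred in Hspa5 only among the 29 (3.45%), and in 601 of all genes (2.22%). A match is a description of the letters, and binding was not measured. No match of one element overlapped a match of another.

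**Figure D1:**
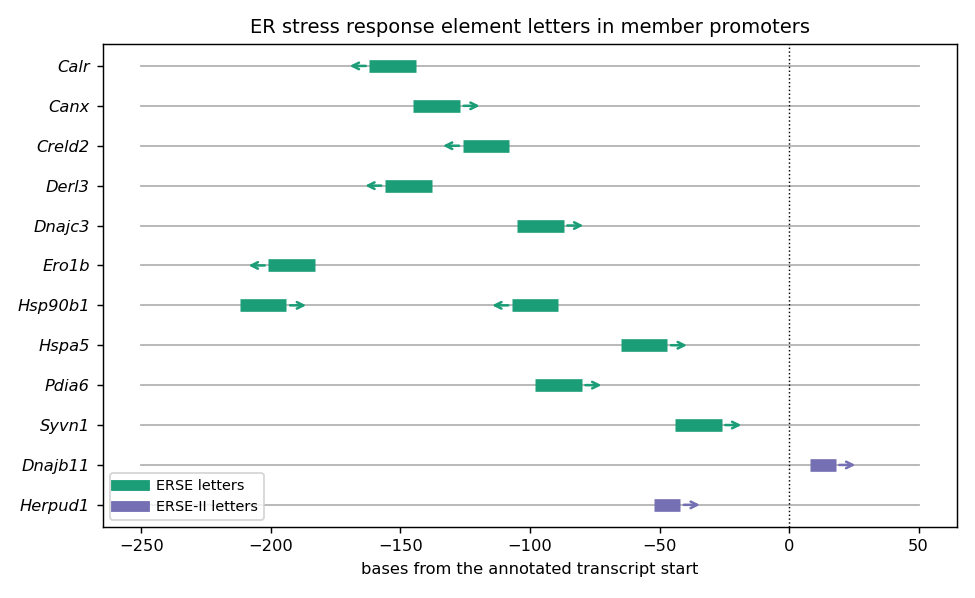
Positions of the ERSE and ERSE-II letters in the promoters that hold one, with distance from the gene start in bases on the horizontal axis and 1 gene per row. The TGACGTG core of Hspa5 is not drawn. The ERSE copies lie between 212 and 26 bases before the start, and Hsp90b1 has 2 of them.

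The messenger of the siRNA's target was lower: Tardbp had signals of 2257, 2249 and 1836 in TDP-43 siRNA cells, against 3748, 3940 and 3699 in control siRNA cells. On this brightest probe set the log2 difference was -0.85 (SE 0.08; limma, adjusted p = 0.00187; 0.0609 without the intensity trend), and the groups did not overlap. It was the smallest drop among the probe sets of Tardbp. The dimmer ones were at -0.86, -1.41, -1.27 and -1.24 (limma over all probe sets, adjusted p from 0.000515 to 0.00515), each without overlap. Their gaps to the brightest probe set's difference had adjusted p of 0.305 or above (limma over pairs of probe sets). Every difference below is a log2 value, TDP-43 siRNA minus control siRNA, of the MAS5 signal, and every standard error and 95% confidence interval comes from limma. MAS5 signal is the array software's brightness of a probe set, so signals of different genes are not ranked against each other.

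None of the 34 genes passed the test (limma, adjusted p below 0.05, 0 higher and 0 lower), while 21 of all 12619 genes were higher (0.166%) and 73 were lower (0.578%). At shares of that size, a set of 34 holds less than 1 call on average, so the count of 0 says little by itself. At an unadjusted p below 0.05, 0 of the 34 were higher and 4 were lower (Dnajc10, Uggt1, Derl2 and Creld2), against 6.75% higher and 5.87% lower of all genes. The median difference was -0.03 over the 34 genes and 0.02 over all genes. Above 0 were 12 of the 34 and 6938 of all 12619 genes, and below 0 were 22 and 5681. The groups stood apart on all arrays for 1 gene that was higher (Derl1), against 9.98% of all genes, and for 3 that were lower (Sil1, Uggt1 and Derl2), against 8.32%.

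The intervals say how large a difference the brightest probe sets leave room for. On these probe sets and with all arrays, the 95% confidence interval lay between -0.42 and 0.33 for 33 of the 34 genes. That is a ratio of 0.748 to 1.25, and the exception was Ddit3. The limits do not hold for every dimmer probe set of these genes. Intervals on dimmer probe sets (limma over all probe sets) were -0.70 to -0.22 for Canx and -0.54 to -0.06 for Edem1. A dimmer probe set of Atf6 went past the upper limit, at -0.34 to 0.48. Probe sets with low signals went further. A probe set of Ern1 (means of 76.6 in TDP-43 siRNA and 72.7 in control siRNA cells) had -0.80 to 0.68. A probe set of Eif2ak3 (means of 69.4 in TDP-43 siRNA and 112 in control siRNA cells) had -1.10 to -0.10. In bulk RNA, fewer cells that express a gene and less RNA per cell cannot be told apart.

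**Figure D2:**
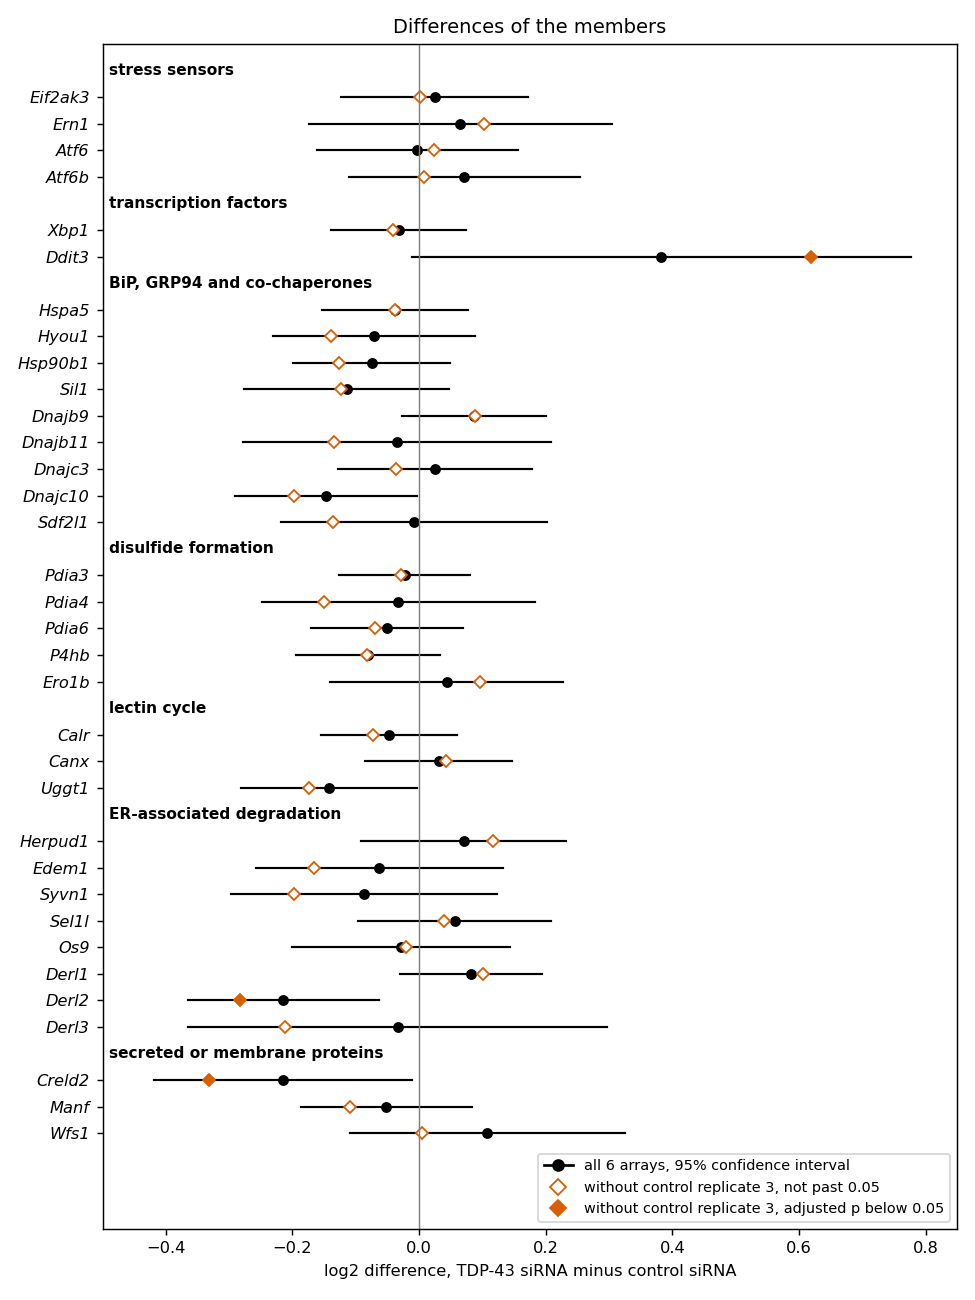
Difference of each gene (log2, TDP-43 siRNA minus control siRNA, horizontal axis), ordered by role. Black points and bars are the value and 95% confidence interval with all 6 arrays, and diamonds are the value without control replicate 3, filled where the adjusted p was below 0.05. Filled diamonds stand at Ddit3 (0.62), Derl2 (-0.28) and Creld2 (-0.33).

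One control array stands apart from the other two, and several values below turn on it. Leaving out control replicate 3 gave 141 higher genes (1.12%) and 112 lower genes (0.888%) over the whole table, while leaving out any other single array gave 4 to 12 higher and 27 to 44 lower. Ldha, lactate dehydrogenase A of glycolysis, shows the split: its signals were 4367, 4353 and 4547 in TDP-43 siRNA cells, against 1829, 1884 and 4780 in control siRNA cells. Among the 34 genes, control replicate 3 was the lowest of the 3 controls in 21 (61.8%), against 34.2% of all genes, and the highest in 7 (20.6%), against 37.1%. The median of the 34 genes, after subtracting each gene's mean over the arrays, was -0.0714, 0.00101 and 0.00951 on the TDP-43 siRNA arrays, against 0.0491, 0.058 and -0.0295 on the control arrays. TDP-43 siRNA replicate 1 and control replicate 3 thus held the lowest medians of their groups. What sets control replicate 3 apart was not tested.

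Without that array, 3 of the 34 genes passed the test, Ddit3 higher (1.12% of all genes) and Derl2 and Creld2 lower (0.888% of all genes). At an unadjusted p below 0.05, 1 was then higher and 8 were lower, against 9.34% and 7.6% of all genes. The median was -0.06. Without both arrays numbered 3, 0 of the 34 were higher (0.919% of all genes) and 1 was lower, Creld2 (0.777% of all genes).

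**Figure D3:**
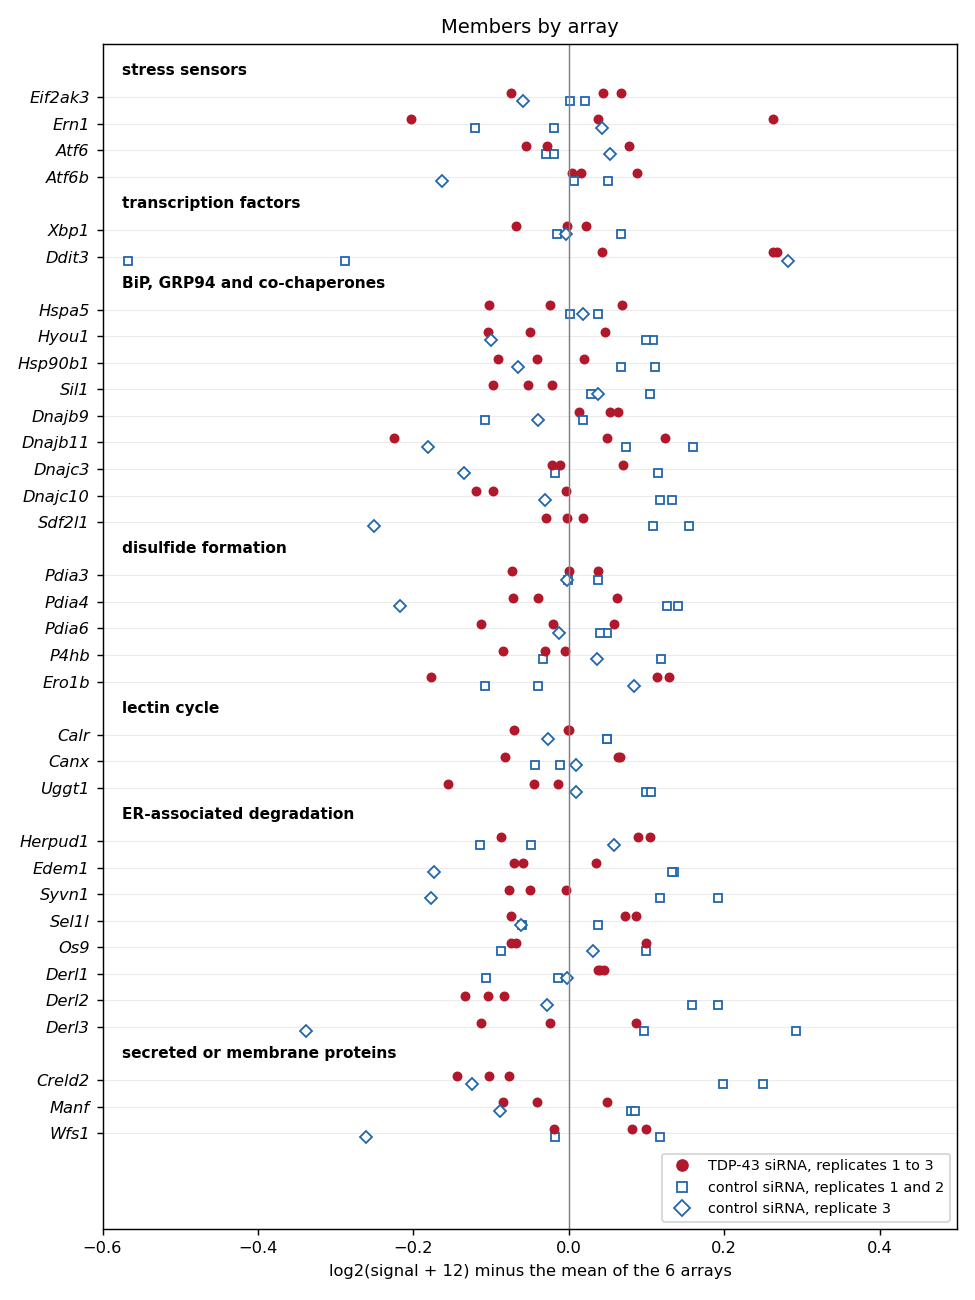
Each gene on each array, as log2(signal + 12) minus the gene's mean over the 6 arrays (horizontal axis), ordered by role. Filled circles are the TDP-43 siRNA arrays, open squares are control replicates 1 and 2, and open diamonds are control replicate 3, which is the lowest control in 21 of the 34 genes.

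None of the 4 sensors passed the test. Eif2ak3, which encodes PERK, the kinase that phosphorylates the initiation factor eIF2, had signals of 2201, 2165 and 1994 in TDP-43 siRNA cells, against 2130, 2102 and 2015 in control siRNA cells. Ern1, which encodes IRE1, had 1944, 2297 and 2689 in TDP-43 siRNA cells, against 2209, 2059 and 2306 in control siRNA cells. For both, all 3 control values fell within the range of the TDP-43 siRNA values. The differences were 0.02 (SE 0.07) for Eif2ak3 and 0.06 (SE 0.11) for Ern1. Atf6, the sensor that is itself a transcription factor, had 1214, 1332 and 1237 in TDP-43 siRNA cells, against 1244, 1235 and 1309 in control siRNA cells. Its paralog Atf6b had 945, 936 and 993 in TDP-43 siRNA cells, against 968, 938 and 833 in control siRNA cells. The Atf6 control values again lay inside the TDP-43 siRNA range, and for Atf6b the groups overlapped, with control replicate 3 the lowest of the 6 arrays. The 4 adjusted p-values ranged from 0.776 for Atf6b to 0.995 for Atf6 (limma).

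Neither transcription factor passed the test with all arrays. Xbp1, whose product drives chaperone and degradation genes, had 11208, 11729 and 11929 in TDP-43 siRNA cells, against 11625, 12309 and 11722 in control siRNA cells. The groups overlapped and the difference was -0.03 (SE 0.05, 95% confidence interval -0.14 to 0.07). These signals measure the messenger's amount, and its splicing by IRE1 was not measured here.

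Ddit3 encodes CHOP, a transcription factor that PERK signalling raises and that can promote cell death. Its signals were 1838, 2144 and 2151 in TDP-43 siRNA cells, against 1459, 1200 and 2172 in control siRNA cells. All 3 TDP-43 siRNA arrays lay above control replicates 1 and 2, and control replicate 3 lay above all of them. With all arrays the difference was 0.38 (SE 0.18, 95% confidence interval -0.01 to 0.78; limma, adjusted p = 0.409), a ratio of 1.30. Without control replicate 3 it was 0.62 (adjusted p = 0.0222), a ratio of 1.54, and without both arrays numbered 3 it was 0.58 (adjusted p = 0.0513). Without control replicate 2, the lowest of the 6 arrays, it was 0.19 (adjusted p = 0.694), so 1 control array either way decides the size. A second, dimmer probe set of Ddit3 had 174, 162 and 181 in TDP-43 siRNA cells, against 118, 92.7 and 133 in control siRNA cells. There the groups did not overlap, also with control replicate 3. The difference on that probe set was 0.55, and its adjusted p over all probe sets was 0.204 (limma).

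BiP and the chaperones around it gave no call in 9 genes. Hspa5 encodes BiP, the abundant ER chaperone whose messenger is a standard readout of the response. Its signals were 13060, 14714 and 13799 in TDP-43 siRNA cells, against 14403, 14039 and 14209 in control siRNA cells. The lowest and the highest of the 6 arrays were both TDP-43 siRNA arrays, and the controls lay between them. The difference was -0.04 (SE 0.05), and its 95% confidence interval, -0.15 to 0.08, leaves room for small differences either way.

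Among BiP's partners, Dnajc10, a disulfide reductase with a J domain that calls on BiP, had the smallest p. Its signals were 3997, 4267 and 3937 in TDP-43 siRNA cells, against 4689.5, 4641 and 4187 in control siRNA cells. Only TDP-43 siRNA replicate 2 and control replicate 3 overlapped. The difference was -0.15 (SE 0.06; limma, adjusted p = 0.386).

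Sil1, a nucleotide exchange factor that resets BiP, had 814, 840 and 859 in TDP-43 siRNA cells, against 938, 889 and 895 in control siRNA cells. Its groups did not overlap, at a difference of -0.11 (SE 0.07; limma, adjusted p = 0.564). Dnajb9, a J-domain co-chaperone that also restrains IRE1, had 8580.5, 8345 and 8636 in TDP-43 siRNA cells, against 7671, 8370 and 8041 in control siRNA cells. Its groups overlapped by 1 control array, and it was 1 of the 2 genes in this role with a difference above 0, at 0.09 (SE 0.05). The other was Dnajc3 (p58IPK), at 0.03 on its brightest probe set. The dimmer probe sets of Dnajc3 were at -0.18, -0.06, -0.16 and -0.12.

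The other 5 chaperone genes had values that overlapped between the groups, and their differences ran from -0.08 to 0.03. Hsp90b1, the ER form of HSP90 (GRP94), averaged 15111 ± 581 in TDP-43 siRNA cells and 15932 ± 999 in control siRNA cells (SD, n = 3 each). Hyou1, a large HSP70 relative that also resets BiP, averaged 4669 ± 250 in TDP-43 siRNA cells and 4913 ± 393 in control siRNA cells. The co-chaperones Dnajc3 and Dnajb11 and their partner Sdf2l1 differed by 0.03, -0.04 and -0.009. Sdf2l1 shows how far control replicate 3 reached: its signals were 6486, 6606 and 6703 in TDP-43 siRNA cells, against 7369, 7137 and 5562.5 in control siRNA cells. Without that array its difference was -0.14 (limma, adjusted p = 0.222).

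The disulfide enzymes held 5 genes, and none had groups that stood apart. P4hb, protein disulfide isomerase itself, had 13956, 14755 and 14488 in TDP-43 siRNA cells, against 14472, 16066 and 15176 in control siRNA cells. Pdia6, another isomerase, had 10498, 11194 and 11824 in TDP-43 siRNA cells, against 11753, 11676 and 11264 in control siRNA cells. Both overlapped, at -0.08 (SE 0.05) for P4hb and -0.05 (SE 0.05) for Pdia6. Ero1b, the oxidase that is rich in the pancreas and feeds disulfides to the isomerases, had 14407, 17812 and 17618 in TDP-43 siRNA cells, against 15845, 15109 and 17257 in control siRNA cells. Its 3 control values lay within the TDP-43 siRNA range, at a difference of 0.04 (SE 0.08). Pdia3, the isomerase that works with the lectins below, averaged 12949 ± 503 in TDP-43 siRNA cells and 13149 ± 209 in control siRNA cells (SD, n = 3 each). Pdia4 averaged 2413 ± 118 in TDP-43 siRNA cells and 2483 ± 336 in control siRNA cells.

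In the lectin cycle, the groups stood apart for Uggt1 and overlapped for both lectins. Uggt1 encodes the folding sensor that adds glucose back to unfinished glycoproteins and so returns them to calnexin and calreticulin. Its signals were 3023, 3266 and 3334 in TDP-43 siRNA cells, against 3607, 3626 and 3389 in control siRNA cells. The highest TDP-43 siRNA array lay just under the lowest control, and the difference was -0.14 (SE 0.06; limma, adjusted p = 0.385).

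Calr, the soluble lectin calreticulin, had 9775, 10252 and 10266 in TDP-43 siRNA cells, against 10618, 10617 and 10072 in control siRNA cells. Canx, the membrane lectin calnexin, had 12770, 14116 and 14140 in TDP-43 siRNA cells, against 13107, 13410 and 13595 in control siRNA cells. Both overlapped, at -0.05 (SE 0.05) for Calr and 0.03 (SE 0.05) for Canx. A dimmer probe set of Canx had 724, 629 and 541 in TDP-43 siRNA cells, against 886, 853 and 858 in control siRNA cells. On that probe set the groups stood apart by -0.46 (limma over all probe sets, adjusted p = 0.123), and its gap to the brightest probe set's difference had an adjusted p of 0.538 (limma over pairs of probe sets).

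ER-associated degradation, which draws misfolded proteins out of the ER for the proteasome, held 8 genes. Derl2, a derlin that helps move proteins across the membrane, had the smallest p of all 34. Its signals were 3706, 3760 and 3633 in TDP-43 siRNA cells, against 4450, 4553 and 3908 in control siRNA cells. All TDP-43 siRNA arrays lay below all controls, with control replicate 3 the nearest. The difference was -0.21 (SE 0.07; limma, adjusted p = 0.213), a ratio of 0.862. It was -0.28 without control replicate 3 (adjusted p = 0.0433) and -0.27 without both arrays numbered 3 (adjusted p = 0.0635). A dimmer probe set of Derl2 had 1419, 1530 and 1617 in TDP-43 siRNA cells, against 1613, 1532 and 1609 in control siRNA cells. There the groups overlapped, at -0.06 (limma over all probe sets, adjusted p = 0.819), and the mean of both probe sets gave -0.14.

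Its relative Derl1 had 7132, 7122 and 7161 in TDP-43 siRNA cells, against 6445, 6869 and 6930 in control siRNA cells. Here all TDP-43 siRNA arrays lay above all controls, at 0.08 (SE 0.05; limma, adjusted p = 0.548). On the dimmer probe sets of Derl1 the groups overlapped, at 0.06, 0.09 and -0.27. Derl3 averaged 475 ± 33.7 in TDP-43 siRNA cells and 494 ± 108 in control siRNA cells (SD, n = 3 each). Its groups overlapped, and whether the derlins differ from each other was not tested.

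Herpud1, a stress-induced membrane protein of the same degradation complex, had 3436.5, 3887 and 3927 in TDP-43 siRNA cells, against 3530, 3375 and 3803 in control siRNA cells. The groups overlapped, at 0.07 (SE 0.07). Syvn1 encodes the ubiquitin ligase HRD1, Sel1l its partner, Os9 a lectin that brings glycoproteins to them, and Edem1 a protein that marks glycoproteins for removal. The differences of these 4 were -0.09, 0.06, -0.03 and -0.06 in that order, with standard errors from 0.07 to 0.09, and their groups overlapped. For Syvn1 and Edem1, control replicate 3 was the lowest of all 6 arrays, and without it the differences were -0.20 and -0.17, not past the threshold. A dimmer probe set of Edem1 had 1871, 1814 and 1504 in TDP-43 siRNA cells, against 2375.5, 2129 and 1888 in control siRNA cells. On that probe set the groups did not overlap, at -0.30 (limma over all probe sets, adjusted p = 0.315).

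Of the 3 secreted or membrane proteins, Creld2 had the difference furthest below 0 among the 34. It encodes an ER protein that stress induces strongly and that can be secreted. Its signals were 3536, 3702 and 3637 in TDP-43 siRNA cells, against 4647, 4483 and 3582.5 in control siRNA cells. Control replicates 1 and 2 stood above every TDP-43 siRNA array, and control replicate 3 lay among them. The difference was -0.22 (SE 0.09, 95% confidence interval -0.42 to -0.01; limma, adjusted p = 0.368), a ratio of 0.861. It was -0.33 without control replicate 3 (adjusted p = 0.0245) and -0.33 without both arrays numbered 3 (adjusted p = 0.0390).

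Manf, a secreted factor that binds BiP and helps beta cells survive, had 11048, 11395 and 12125 in TDP-43 siRNA cells, against 12394, 12438 and 11024 in control siRNA cells. Wfs1, the membrane protein wolframin, whose loss causes a diabetes syndrome, had 1500, 1481 and 1381 in TDP-43 siRNA cells, against 1519, 1382 and 1165 in control siRNA cells. Both overlapped, and in both control replicate 3 was the lowest of the 6 arrays. The differences were -0.05 (SE 0.06) for Manf and 0.11 (SE 0.10) for Wfs1. Without control replicate 3 they were -0.11 for Manf and 0.004 for Wfs1, not past the threshold.

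**Figure D4:**
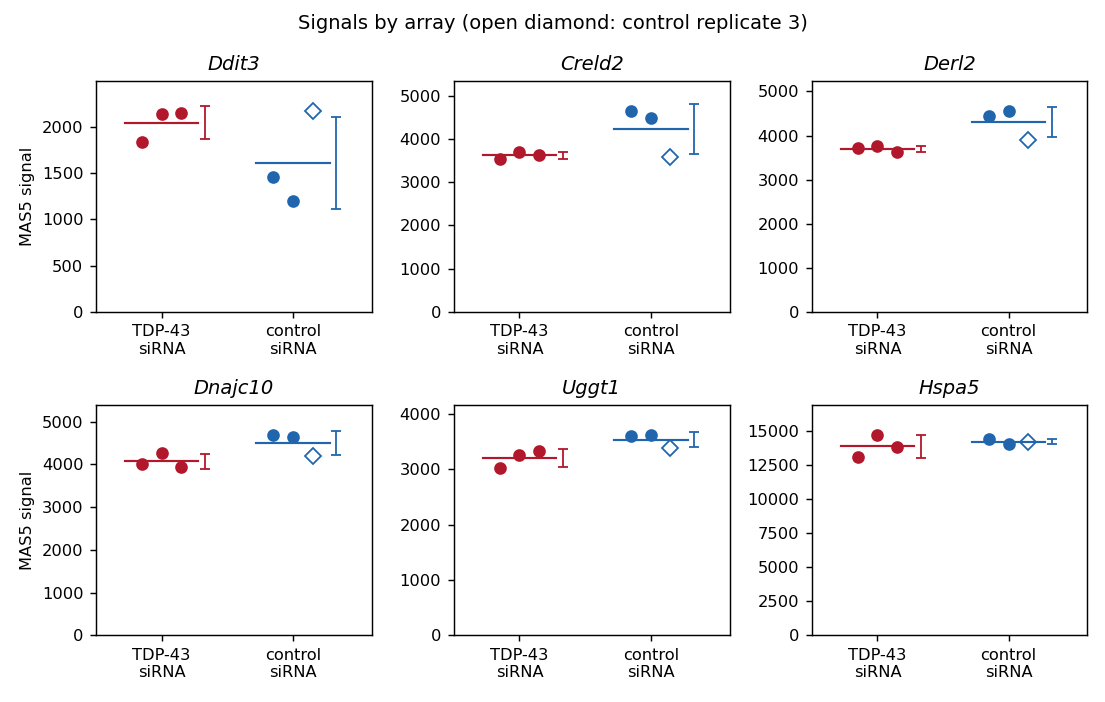
MAS5 signal (vertical axis, from 0) of 6 genes on each array, with TDP-43 siRNA left of control siRNA, a line at each group's mean and a bar for 1 SD (n = 3 arrays each). The open diamond is control replicate 3, which lies above all TDP-43 siRNA arrays for Ddit3 and among them for Creld2.

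The genes with an ERSE can be set beside those without. The 10 with the element had a median difference of -0.04, with 7 below 0, and the 19 without it had -0.02. Without control replicate 3 the medians were -0.07 and -0.03. Control replicate 3 was the lowest control in 7 of the 10 and in 12 of the 19. No difference between the genes with and without it was tested.

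Creld2 shares its element with a neighbour. Its gene start lies 328 bases from that of Alg12, an enzyme that builds the sugar tree of glycoproteins in the ER, which is read from the other strand, and the same letters fall in both promoter windows. The promoter of Creld2 is shown because it holds both genes' view of that element, with the ends in capitals as they read on the plus strand.

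Creld2 promoter, chr15:88819396-88819645, plus strand: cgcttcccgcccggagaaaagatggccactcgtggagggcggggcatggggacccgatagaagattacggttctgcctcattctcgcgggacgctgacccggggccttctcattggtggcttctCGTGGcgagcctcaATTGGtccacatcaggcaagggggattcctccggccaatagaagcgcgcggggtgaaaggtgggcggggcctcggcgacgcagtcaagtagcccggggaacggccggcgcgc

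Alg12 had 417, 390 and 415 in TDP-43 siRNA cells, against 553, 480 and 465 in control siRNA cells. All TDP-43 siRNA arrays lay below all controls, at -0.28 (SE 0.10; limma, adjusted p = 0.251). Outside the 34 genes, 27 others had an ERSE, of which 3 were measured: Alg12, Adcy3 at 0.38 (SE 0.24) and Pan2 at -0.15 (SE 0.14), and none of the 3 passed the test.

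Most members had more than 1 probe set, which gives a further reading. The 34 genes had 80 probe sets, of which 78 lay above the filter, and 0 of these passed the test (limma over 27022 probe sets, 0.585% called). Of 44 that were not the brightest of their gene, 23 had a difference of the same sign as the brightest. In a test of whether a gene's probe sets differ in their response, 0 of the 44 passed (limma over 10814 pairs, 0% called), and 2 had an unadjusted p below 0.05, the dimmer Canx probe set above and 1 of Eif2ak3. For 11 genes only 1 probe set was above the filter. The brightest probe sets of Xbp1, Hyou1, Dnajc10, Canx, Syvn1 and Derl1 carry the suffix _s_at. Those of Hspa5, Hsp90b1, P4hb, Calr and Derl3 carry _a_at. Both suffixes mark probes able to read more than 1 transcript.

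Other genes of the same pathway were listed by function, and 3 of the 4 lists gave no call. Of 38 other ER folding genes, 35 were measured, 0 passed the test and the median was -0.02. Of 29 other degradation genes, 27 were measured, 0 passed and the median was -0.01. Of 28 other signalling genes, 22 were measured, 0 passed and the median was -0.005. Of all genes, 0.166% passed as higher and 0.578% as lower. At an unadjusted p below 0.05 the 3 lists had 3, 1 and 2 higher and 0, 4 and 2 lower in the same order (limma), against 6.75% and 5.87% of all genes.

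The genes with the smallest p in each list were these. Ero1a, the oxidase related to Ero1b, had 5171, 5086 and 6035 in TDP-43 siRNA cells, against 3148, 3035 and 4755 in control siRNA cells. Its groups did not overlap, at 0.60 (SE 0.15; limma, adjusted p = 0.119), and without control replicate 3 it was 0.81 (adjusted p = 0.00197). It was called without both arrays numbered 3 as well, at 0.73 (adjusted p = 0.00168). Edem2, a relative of Edem1, had 1624, 1697 and 1617 in TDP-43 siRNA cells, against 2238, 2058 and 1877 in control siRNA cells. Its groups stood apart by -0.32 (SE 0.08; limma, adjusted p = 0.111), and by -0.38 without control replicate 3 (adjusted p = 0.0334). Among the folding genes Tmx3 and Kdelr3 followed, at 0.14 and 0.21. Among the degradation genes Ube2g1, a ubiquitin-conjugating enzyme, and Aup1 followed, at -0.31 and -0.24. Creb3l2, a relative of ATF6, was at -0.29, Ppp1r15a, the subunit that lifts the PERK block on translation, at 0.35, and Bfar at -0.22 (limma, adjusted p from 0.122 to 0.304).

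The last list lies next to the PERK arm. It holds 29 targets of the integrated stress response, the programme of ATF4 that other kinases than PERK can also start, and all 29 were measured. Its median was 0.20, against 0.02 over all genes. In the list 25 of 29 were above 0, against 6938 of all 12619 genes. At an unadjusted p below 0.05, 17 were higher and 0 lower, against 6.75% and 5.87% of all genes. Of the 29, 1 passed the test and was higher, against 0.166% of all genes. It was Cth, an enzyme of cysteine synthesis. Cth had 892, 804 and 1241 in TDP-43 siRNA cells, against 497, 473 and 545 in control siRNA cells, and rose by 0.92 (SE 0.14; limma, adjusted p = 0.0209). The call was lost in 5 alternatives, with adjusted p from 0.0638 to 0.140: without the filter, without the intensity trend, and without TDP-43 siRNA replicate 1, control replicate 1 or control replicate 2. The groups did not overlap.

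Atf4 itself had 8022.5, 9618 and 9529.5 in TDP-43 siRNA cells, against 7353, 7303 and 8067 in control siRNA cells, at 0.25 (SE 0.08; limma, adjusted p = 0.189). Only TDP-43 siRNA replicate 1 and control replicate 3 overlapped. Control replicate 3 was the highest of the controls in 62.1% of the 29 genes, where among the ER genes it was the lowest in 61.8%. Without it 5 of the 29 were higher (Cth, Trib3, Ddit4, Vldlr and Eif4ebp1), against 1.12% of all genes, 0 were lower, against 0.888%, and the median was 0.24, against 0.02 over all genes. Without both arrays numbered 3, 4 were higher, against 0.919% of all genes, and Eif4ebp1 was no longer called (limma, adjusted p = 0.0508). Ddit4 shows that array's place: 2508, 2510 and 2491 in TDP-43 siRNA cells, against 1442, 1363 and 2637 in control siRNA cells.

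**Figure D5:**
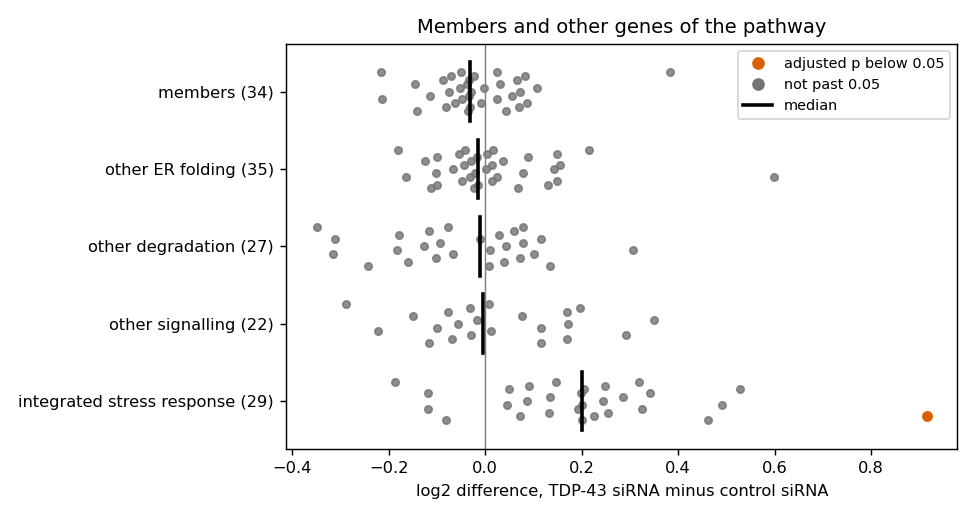
Difference (log2, TDP-43 siRNA minus control siRNA, horizontal axis) of each gene in the 34 genes and in 4 lists of other pathway genes, with the number measured in brackets and a bar at each median. The first 4 medians lie between -0.03 and -0.005, the integrated stress response list is at 0.20, and Cth is the single gene past the threshold with all arrays, a call that 5 alternatives lose.

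Markers of cell types were summed over the same probe sets on each array, to set the arrays beside each other. Of the beta cell markers 11 of 14 were measured, with summed signals of 98921 to 106980 in TDP-43 siRNA cells, against 100610 to 105050 in control siRNA cells, and 0 passed the test. Other islet markers summed to 29383 to 32248 in TDP-43 siRNA cells, against 31950 to 34239 in control siRNA cells (5 of 8 measured), and 0 passed with all arrays. The 7 of 13 stromal and immune markers above the filter summed to 361 to 458 in TDP-43 siRNA cells, against 357 to 525 in control siRNA cells. The 5 of 12 acinar and duct markers summed to 5406 to 6524 in TDP-43 siRNA cells, against 5918 to 6626 in control siRNA cells. Most of that sum is the duct marker Krt7, with 4821, 5064 and 5976 in TDP-43 siRNA cells, against 5486, 5349.5 and 6108 in control siRNA cells. No stromal, immune, acinar or duct marker passed, with all arrays or without control replicate 3. Without control replicate 3, where Ddit3, Derl2 and Creld2 were called, 2 islet markers were called as well. Slc30a8, the zinc transporter of insulin granules, had 8537, 9368 and 9340 in TDP-43 siRNA cells, against 7591, 7224 and 8152 in control siRNA cells, and was at 0.25 with all arrays (limma, adjusted p = 0.119). It was 0.29 without control replicate 3 (adjusted p = 0.0471) and 0.27 without both arrays numbered 3 (adjusted p = 0.0898). Gcg, which encodes glucagon, had 7735, 8000 and 8760.5 in TDP-43 siRNA cells, against 9792, 10654 and 7345 in control siRNA cells, and was at -0.17 with all arrays (limma, adjusted p = 0.613). It was -0.32 without control replicate 3 (adjusted p = 0.0492) and -0.38 without both arrays numbered 3 (adjusted p = 0.0285). The part of these markers in the calls was not tested. RNA quality was read from the 3′ minus 5′ log2 difference of 2 housekeeping genes: that of Gapdh differed by 0.0154 between the groups (exact permutation p = 0.4, two-sided), and that of actin by -0.0291 (exact permutation p = 0.2). With 3 arrays against 3, the smallest p possible is 0.1.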

How the data were processed

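Signal intensity of 45101 probe sets on 6 Affymetrix arrays was deposited by the authors on a linear scale, made with MAS5 per the submitters' processing notes. Trimming 2% of values at each end left a mean of 500.003 on every array, and correlations between arrays were 0.985 to 0.991. Detection calls were not used here. Control probe sets (64) and the 40% with the lowest mean signal were left out. GEO's platform annotation gave the gene names (34945 with 1 gene, 932 with several, 9160 not listed), and symbols were updated through Entrez numbers with RefSeq GRCm38.p6 (34741 matched). The brightest single-gene probe set stood for each gene.

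Groups were compared on log2(signal + 12) in R 4.3.3 by limma 3.58.1, using its lmFit and its eBayes moderation along an intensity trend (two-sided tests, Benjamini-Hochberg over 12619 genes, threshold 0.05). Differences between probe sets of a gene were fitted without the trend, which was settled after a first look at the data. Figures used matplotlib 3.10.9. Fitting steps were tested on simulated data. The genes, pathway lists and markers were chosen with earlier results of these data known, so counts are descriptions. Per-array values are given for up to 3 genes per role with the smallest p and for Hspa5, Ddit3, Xbp1, Eif2ak3, Ern1 and Atf6, and pathway genes are named when past the threshold or among the 3 smallest p. Sdf2l1, Krt7 and the dimmer probe sets of Ddit3, Derl1, Derl2, Canx and Edem1 were chosen after their values were seen. So were the dimmer probe sets of Dnajc3, Eif2ak3, Atf6, Ern1 and Tardbp. The same holds for Ldha, Atf4, Ddit4, Slc30a8, Gcg and the genes called without control replicate 3. Alternatives covered the pseudocount, filter, scaling, trend, probe set choice, replicate number and left-out arrays. The number of arrays limits the precision.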

Additional observations from a re-analysis of the deposited data

How the results depend on the processing

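Over 16 alternatives the 34 genes gave 544 results, of which 503 kept their direction and side of the threshold, 37 changed sign and 4 newly passed the threshold, and 18 genes never changed sign. The 4 are Ddit3, Derl2 and Creld2 without control replicate 3 and Creld2 without both arrays numbered 3. Leaving out each array in turn gave 4 to 141 higher and 27 to 112 lower among all genes, and 0 to 1 higher and 0 to 2 lower among the 34. Without both arrays numbered 3, 116 of all genes were higher, 1 of the 34 was lower and the median of the 34 was -0.081. Without a filter 8 genes were higher and 43 lower, without the intensity trend 1 was higher and 11 lower, and with the mean of probe sets 9 were higher. The cause was not tested, beyond that no filter tests more genes. Cth had an adjusted p above 0.05 without the filter (0.0700), without the trend (0.140) and without TDP-43 siRNA replicate 1 (0.0638), control replicate 1 (0.0982) or control replicate 2 (0.0998), and Tardbp without the trend (0.0609).

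With the replicate number as a block, 39 genes were higher and 84 lower and none of the 34 passed, while Ero1a (adjusted p = 0.0144) and Vldlr (adjusted p = 0.0212) did. After each gene's group mean was subtracted, the remaining deviations of same-numbered arrays had correlations of -0.12, -0.14 and 0.24. The numbers were therefore not taken to pair the arrays.

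Signs changed where differences were small, and the cause was not tested. Atf6 was at 0.00061 with quantile normalization and 0.0030 with median centring. With the mean of probe sets Eif2ak3 was at -0.27, Ern1 -0.16, Dnajc3 -0.099, Ero1b -0.081, Canx -0.14, Sel1l -0.0063 and Derl1 -0.010. The dimmer probe sets of Eif2ak3 were at -0.23 and -0.60, with low group mean signals of 69.4 to 112. Without both arrays numbered 3 Ern1 was at -0.013, Atf6 0.036, Atf6b -0.019 and Dnajc3 -0.019. With each array left out in turn, the ranges were -0.0030 to 0.068 for Eif2ak3, -0.050 to 0.18 for Ern1, -0.042 to 0.024 for Atf6, -0.083 to 0.0034 for Hspa5, -0.13 to 0.069 for Dnajb11, -0.036 to 0.089 for Dnajc3, -0.14 to 0.066 for Sdf2l1, -0.047 to 0.0080 for Pdia3, -0.15 to 0.029 for Pdia4, -0.010 to 0.14 for Ero1b, -0.085 to 0.014 for Os9 and -0.21 to 0.10 for Derl3.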
